A study of Homo sapiens with 6 samples.

Results

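The S100 proteins and the annexins are families of calcium-binding proteins that act together on membranes and the cytoskeleton, and their genes were followed in HepG2 cells in which DGUOK was silenced. Members were all protein-coding genes of the count table whose whole symbol is S100 followed by B, G, P, Z, PBP or A and a number (a final A allowed, as in S100A7A), or whose symbol begins with ANXA and a number. S100A7L2, a protein-coding gene with 0 counts in every library, has another form of symbol and was not a member. This rule took 31 of the 34036 genes listed, 17 with an S100 symbol and 14 with an annexin symbol. The S100 symbols include S100PBP, a nuclear partner of S100P, and the annexin symbols include ANXA2R, a proposed receptor of annexin A2; neither encodes a protein of the family whose name it carries.

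HepG2 is an established human cell line grown from a hepatocellular carcinoma, and it keeps many transcripts of hepatocytes. With Lipofectamine RNAiMAX, at 6 pmol of siRNA per well of a 24-well plate or scaled to other formats, cultures received either a non-targeting siRNA (siControl) or an siGENOME pool against DGUOK (siDGUOK), the kinase that starts purine deoxynucleoside salvage in mitochondria, and polyadenylated RNA was sequenced 48 h after transfection in 3 libraries per group. The submitters call the replicates independent biological replicates, handled in parallel, with libraries prepared and sequenced together. The totals on genes were 19065684, 18915508 and 10527216 counts in siControl 1, 2 and 3. In siDGUOK 1, 2 and 3 they were 18613138, 15978314 and 21334876 counts. Titles and library names separate the groups, while every sample carries siControl in its treatment field, so the targeted gene was used to check the labels. DGUOK transcripts stood at 54.4, 53.1 and 48.2 CPM (a gene's counts scaled to a common library size) in siControl 1, 2 and 3 and at 9.08, 10.5 and 6.72 CPM in siDGUOK 1, 2 and 3. The groups did not overlap and the labels of all 6 libraries held, at −2.57 on the log2 scale with a standard error (SE) of 0.19 (adjusted p = 1.64e-08 in edgeR's quasi-likelihood test with Benjamini-Hochberg adjustment).

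S100 proteins are small dimers whose EF-hand loops bind calcium, open a hydrophobic cleft and dock onto target proteins; most of their human genes lie together in the epidermal differentiation complex on chromosome 1. Annexins bind acidic phospholipids on the inner face of membranes when calcium rises, and the N-terminal tails of several of them are the docking sites of particular S100 dimers. In liver the families are best known from injured, regenerating and malignant tissue, from bile duct cells, and from the repair of torn plasma membranes.

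At least 1 count was present for 28 members, and 24 passed edgeR's count filter (filterByExpr, minimum count 10) and were tested, 13 with an S100 symbol and 11 with an annexin symbol. Of these, 15 were called (adjusted p below 0.05 and a log2 fold change beyond 0.5 in either direction), where 14.1% of all 14476 genes tested were called. In siDGUOK cells 13 members were called higher, against 7.42% of all genes tested, and 2 were called lower, against 6.68%. By the adjusted p alone 16 members passed, beside 19.7% of all genes; ANXA6 was the additional member. The 3 siDGUOK libraries lay above the 3 siControl libraries in 13 members, a pattern shown by 18.7% of genes tested, and below them in 5 members, a pattern shown by 17.3%. All 10 called S100 genes were higher, and the median log2 fold change of the 13 tested S100 symbols was 1.30, beside 0.02 for all genes tested. Among the 11 tested annexin symbols 3 were called higher and 2 lower, with a median of 0.02. Of the tested members, ANXA1, ANXA2R and S100A5 had fewer than 10 counts in 2 of the 3 siControl libraries, and none of these 3 was called; every called member had at least 10 counts in each siControl library.

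**Figure D1:**
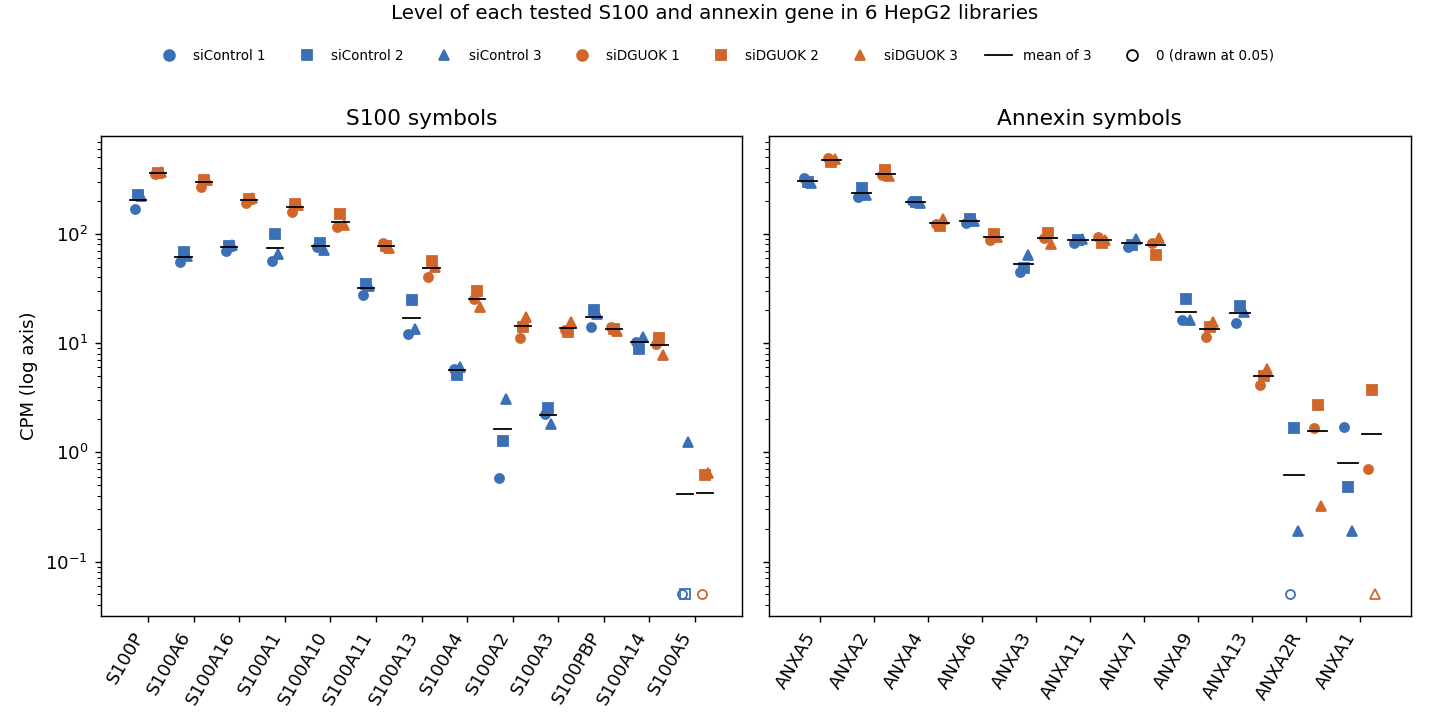
CPM (log axis) of each of the 24 tested members in the 6 libraries, siControl in blue and siDGUOK in orange, with a bar at the mean of 3. The siDGUOK points stand above the siControl points in 10 of 13 S100 symbols, while annexin symbols go either way.

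The plot of CPM by library shows that the separation of the groups in the called genes does not rest on a single library. In the plot of fold changes with their standard errors the called S100 genes fill most of the upper end, from 0.75 for S100A10 to 3.20 for S100A2, and the lower end is held by ANXA13 and ANXA4. The wide bars of ANXA1, ANXA2R and S100A5 belong to transcripts with few counts.

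**Figure D2:**
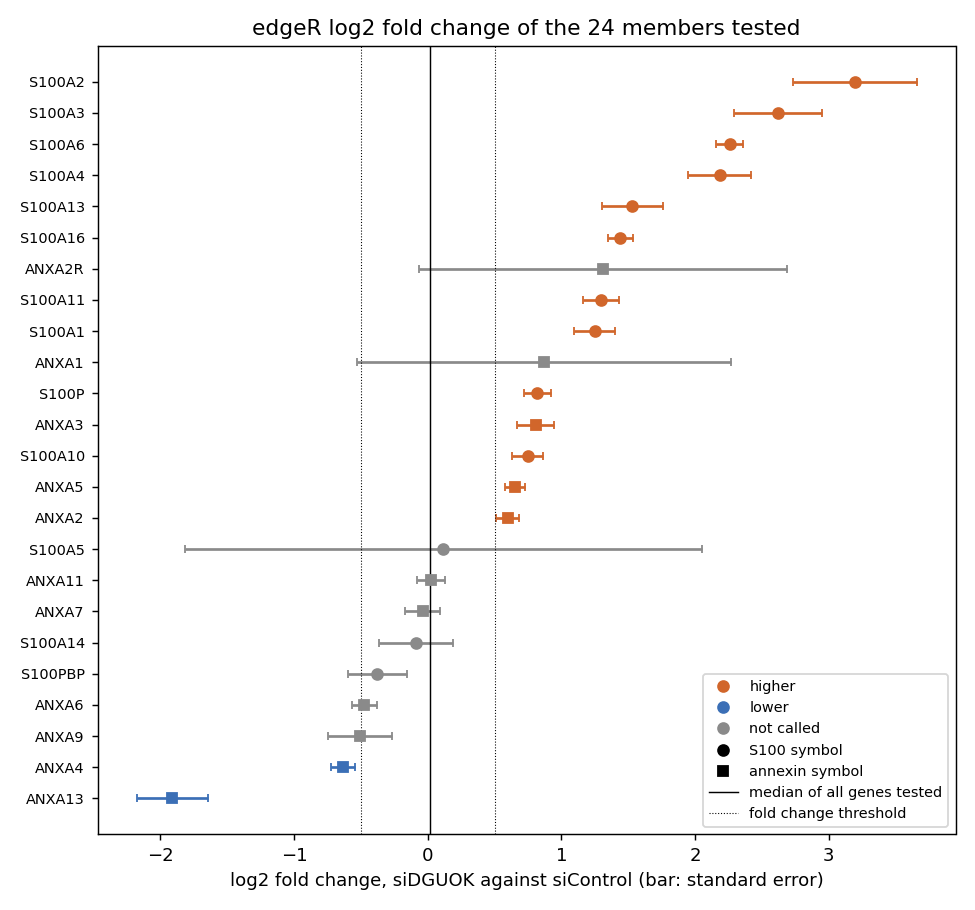
Log2 fold change (siDGUOK against siControl, edgeR) of the 24 tested members, with bars for the standard error, orange for called higher, blue for called lower and grey for not called; circles are S100 symbols and squares annexin symbols. The dotted lines mark the fold change threshold of 0.5 in either direction, and the solid line marks the median of all genes tested, 0.02.

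Markers of cell types were read in the same libraries before the members were compared. All 16 hepatocyte markers were measured, and 13 of them were called lower in siDGUOK cells and 0 higher. Their summed level was 71966, 67732 and 65320 CPM in siControl 1, 2 and 3 and 40159, 36090 and 34287 CPM in siDGUOK 1, 2 and 3; the most abundant, ALB, went from 16113 to 5401 CPM as group means. Cholangiocyte markers summed to 1714, 1838 and 1904 CPM in siControl and 3541, 3642 and 3758 CPM in siDGUOK libraries, with 2 of 6 tested called higher and 1 lower. Their most abundant gene, KRT19, went from 893 to 2539 CPM as group means. The hepatocyte sum was therefore lower and the cholangiocyte sum higher in every siDGUOK library, alongside the S100 genes. In RNA pooled from a whole culture, fewer cells of a type and less RNA per cell cannot be told apart, and the part of these shifts in the S100 results was not tested.

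Some libraries also differed within the siDGUOK group. Endothelial markers summed to 61.0 CPM in siDGUOK 2 and to at most 4.48 CPM in each of the other 5 libraries; the most abundant, VWF, had 510 counts in siDGUOK 2 and 26 or fewer elsewhere, 0 of 3 tested were called, and CLDN5 and STAB2 were at 0 in every library. Stromal markers summed to 59.3, 63.2 and 55.0 CPM in siControl and 151, 167 and 92.3 CPM in siDGUOK 1, 2 and 3, with 2 of 6 tested called higher, 1 lower and THY1 at 0 throughout. Over both groups the most abundant was ACTA2, with group means of 28.3 and 25.0 CPM, though in siDGUOK cells VIM and TAGLN were above it. The stromal genes called higher were COL1A1, from 1.17 to 19.4 CPM, and TAGLN, from 17.5 to 32.0 CPM as group means. COL1A1 had only 9, 37 and 11 counts in siControl 1, 2 and 3. Like COL1A1 and TAGLN, VIM was named after its values were seen. It gave 0.641, 1.28 and 0.858 CPM in siControl and 57.0, 58.6 and 2.67 CPM in siDGUOK 1, 2 and 3. Myeloid markers summed to between 1638 and 1730 CPM in siControl and between 1773 and 1914 CPM in siDGUOK libraries, nearly all of it LYZ, with 0 of 7 tested called higher, 1 lower and FCGR3A at 0. Squamous keratinocyte markers summed to at most 33.8 CPM in any library, nearly all of it KRT10, and TP63, KRT14, KRT1, KRT6A and DSG3 had 0 counts in every library. KRT10 was the only tested marker of that list and was called higher. A count was present for 21057 genes in siDGUOK 1 and for between 16205 and 17583 genes in the other 5 libraries. Without siDGUOK 1 the members gave 13 calls higher and 2 lower, and without siDGUOK 2 they gave 13 higher and 3 lower, so the S100 result did not rest on either library.

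**Figure D3:**
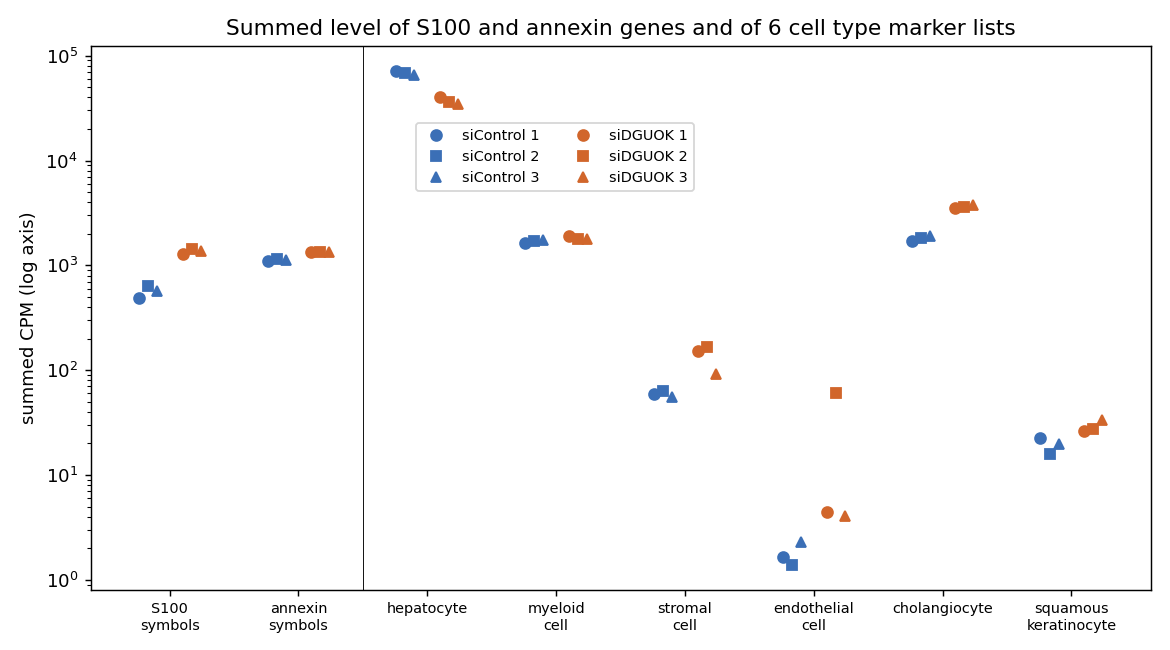
Summed CPM (log axis) in each library of the S100 symbols except S100PBP, the annexin symbols except ANXA2R and 6 lists of cell type markers. Points are blue for siControl and orange for siDGUOK. The S100 sum lay between 484 and 636 CPM in siControl and between 1270 and 1426 CPM in siDGUOK libraries, and the endothelial sum stands apart in siDGUOK 2.

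As the plot of summed levels shows, S100 transcripts without S100PBP together went from 562 ± 76.2 to 1358 ± 79.8 CPM (SD, n = 3). The ratio between group means was 2.41. Annexin transcripts without ANXA2R together went from 1126 ± 27.02 to 1334 ± 5.03 CPM (SD, n = 3), a ratio of 1.18. The ranges of the 3 libraries did not overlap for either sum, which was not tested as a sum.

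In the edgeR fit, the rises of greatest size on the log2 scale were those of S100A2, S100A3, S100A6 and S100A4, which lie within the same short stretch of the chromosome 1 cluster. S100A6, or calcyclin, is a calcium sensor of proliferating cells that binds the calcyclin-binding protein CACYBP. Its level was 54.8, 68.5 and 62.2 CPM in siControl 1, 2 and 3 and 266, 313 and 310 CPM in siDGUOK 1, 2 and 3. The lowest siDGUOK library was thus several times the highest siControl library, and the log2 fold change was 2.26 (SE 0.10). S100A4, known as metastasin and as a binder of nonmuscle myosin, gave 5.77, 5.06 and 6.01 CPM in siControl and 25.2, 29.9 and 21.3 CPM in siDGUOK libraries. All 3 siDGUOK values were well clear of the siControl values, at a log2 fold change of 2.19 (SE 0.23). S100A3, a cysteine-rich and zinc-binding member best known from the hair cuticle, gave 2.24, 2.56 and 1.81 CPM in siControl and 13.2, 12.6 and 15.5 CPM in siDGUOK libraries. It was low in every control and moderate in every siDGUOK library, with a log2 fold change of 2.62 (SE 0.33) that became 1.80 in DESeq2 with shrunken fold changes. S100A2, a mostly nuclear member of epithelial cells that binds p53, gave 0.588, 1.28 and 3.05 CPM in siControl and 11.2, 14.2 and 17.3 CPM in siDGUOK libraries. The siControl values spread widely, on 11, 24 and 32 counts, but stayed below every siDGUOK value, and the log2 fold change of 3.20 (SE 0.46) shrank to 1.72 in DESeq2 with shrunken fold changes and was 3.92 without siControl 3. With shrunken fold changes S100A6 was the member with the largest rise, at 2.17. By edgeR's quasi-likelihood test with Benjamini-Hochberg adjustment, the adjusted p was 2.82e-11 for S100A6, 1.89e-06 for S100A4, 1.18e-05 for S100A3 and 5.46e-05 for S100A2.

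RefSeq promoter entries (GRCh38.p14) were held for 28 of the 31 members, 40 entries in all, and the 250 bases before each start were searched on both strands. Entries for ANXA8, ANXA13 and S100B were not used here. The windows of S100A4, S100A3 and S100A2 are shown because these neighbours rose together, that of S100P because it was the most abundant member per length, and that of S100A14 because this neighbour was not called. The window of S100A6 is not printed because all 250 of its bases are in an exon of another S100A6 transcript; it has 24 CG pairs, 3 GC boxes and no match to the other motifs. Each window shown is printed 5′ to 3′ on the strand of its gene, with matches to a searched motif in capitals. The S100A4 window is chr1:153545807-153546056 and the S100A3 window chr1:153549259-153549508, both on the minus strand within the span of the longer S100A4 transcripts and outside any exon of Gencode 44. The S100A2 window, chr1:153565845-153566094 on the minus strand, is the upstream of its 2 entries and lies in an intron of longer S100A2 transcripts. The S100P window, chr4:6693628-6693877 on the plus strand, lies in no annotated gene. The S100A14 window, chr1:153616326-153616575 on the minus strand, lies within the span of longer S100A14 transcripts, and 30 of its bases are in an exon of such a transcript.
S100A4: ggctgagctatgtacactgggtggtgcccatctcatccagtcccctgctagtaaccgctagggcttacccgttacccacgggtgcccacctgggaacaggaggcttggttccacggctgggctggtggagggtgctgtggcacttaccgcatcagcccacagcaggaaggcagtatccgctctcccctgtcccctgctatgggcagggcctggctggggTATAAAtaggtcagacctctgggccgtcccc
S100A3: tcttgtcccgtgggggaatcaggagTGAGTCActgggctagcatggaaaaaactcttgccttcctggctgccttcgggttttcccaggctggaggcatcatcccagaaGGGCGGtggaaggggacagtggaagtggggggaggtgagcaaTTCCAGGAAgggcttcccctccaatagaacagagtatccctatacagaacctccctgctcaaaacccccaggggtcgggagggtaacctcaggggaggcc
S100A2: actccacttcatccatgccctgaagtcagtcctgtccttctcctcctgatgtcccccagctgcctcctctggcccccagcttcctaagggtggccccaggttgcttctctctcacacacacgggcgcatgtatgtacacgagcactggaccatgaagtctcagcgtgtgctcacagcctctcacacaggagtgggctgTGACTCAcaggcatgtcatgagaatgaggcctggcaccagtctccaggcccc
S100P: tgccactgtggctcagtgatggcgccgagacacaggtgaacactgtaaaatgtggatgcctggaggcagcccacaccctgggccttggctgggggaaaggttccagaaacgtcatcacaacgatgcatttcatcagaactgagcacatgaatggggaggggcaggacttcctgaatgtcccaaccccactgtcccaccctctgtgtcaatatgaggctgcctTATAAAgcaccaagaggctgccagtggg
S100A14: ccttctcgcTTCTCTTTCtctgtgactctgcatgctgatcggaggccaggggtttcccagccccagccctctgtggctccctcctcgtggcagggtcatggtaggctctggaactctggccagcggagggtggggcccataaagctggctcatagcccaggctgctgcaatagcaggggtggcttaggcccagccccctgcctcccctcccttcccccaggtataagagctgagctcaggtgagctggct

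In these windows TATAAA, the TATA box, begins 31 bases before the start of S100A4 and 28 bases before that of S100P. TGANTCA, the site of AP-1, begins 52 bases before the start of S100A2 and 225 bases before that of S100A3. The S100A3 window also holds GGGCGG (GC box) at 142 bases and TTCNNNGAA (STAT) at 100 bases, and the S100A14 window holds GAAANNGAA (IRF) on the opposite strand at 241 bases. GGAATG (TEAD) was searched as well and is in none of these 5 windows, and the matches shown do not overlap each other. Over all 40 member entries, AP-1 letters were present in 12.5%, beside 6.57% of the 35116 promoters of the RefSeq table. The TATA box was in 25% of member entries and 10.7% of all promoters, the GC box in 40% and 42.6%, and TEAD letters in 5% and 11.9%. STAT letters were in 12.5% of member entries and 6.57% of all promoters, and IRF letters in 7.5% and 6.88%. The AP-1, TATA box and STAT shares include genes that were not called, and of the 5 genes with STAT letters S100A3 alone was called. The median GC content of the 14 entries of S100 genes called higher was 61.4%, beside 58% for all promoters, and their median number of CG pairs was 6.5, beside 11. A match describes the letters of a window and is neither evidence of binding nor a cause.

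Further along the same cluster S100A16, S100A14, S100A13 and S100A1 follow each other. S100A16 is a widely expressed member, and its level was 70.3, 77.3 and 78.5 CPM in siControl and 194, 210 and 211 CPM in siDGUOK libraries. Replicates were close in both groups and the groups were far apart, with a log2 fold change of 1.44 (SE 0.09). S100A14, an epithelial member whose gene lies next to that of S100A16, gave 10.1, 8.90 and 11.3 CPM in siControl and 9.78, 11.1 and 7.73 CPM in siDGUOK libraries. Its groups overlapped, with a log2 fold change of −0.09 (SE 0.28). On the scale of CPM per kilobase of transcript, the ratio of S100A6 to S100A14 was 13.1, 18.7 and 13.3 in siControl and 66.0, 68.7 and 97.3 in siDGUOK libraries, so these genes of 1 cluster changed unequally. The level of this ratio also depends on the length used, and with the joint exon length S100A6 stood at 63.7 and S100A14 at 7.93 CPM per kilobase in siControl cells. S100A13, which takes part in the release of fibroblast growth factor 1 without a signal peptide, gave 12.1, 24.9 and 13.3 CPM in siControl and 40.5, 56.1 and 50.0 CPM in siDGUOK libraries. The highest control, siControl 2, stayed below the lowest siDGUOK library, and the log2 fold change was 1.53 (SE 0.23). S100A1, the S100 protein of heart muscle that acts on calcium release and uptake, gave 56.1, 99.4 and 64.9 CPM in siControl and 157, 186 and 182 CPM in siDGUOK libraries. Here too siControl 2 was the highest control and the groups stayed apart, at a log2 fold change of 1.25 (SE 0.15). S100A1 and S100A13 are uncertain, because their exons overlap over 235 bases on opposite strands in Gencode 44 and the counting ignored strand. S100A1 also shares 320 bases, 10.6% of its exon length, with a long non-coding RNA gene on the opposite strand, and 24.2% of the exon length of S100A13 is shared with another such gene on its own strand. By edgeR's quasi-likelihood test with Benjamini-Hochberg adjustment, the adjusted p was 2.30e-09 for S100A16, 8.69e-05 for S100A13, 9.57e-06 for S100A1 and 0.885 for S100A14.

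S100A5, a calcium-, zinc- and copper-binding member known from olfactory neurons, lies between S100A6 and S100A4 and had 0, 0 and 13 counts in siControl and 0, 10 and 14 counts in siDGUOK libraries. The groups overlapped, and the log2 fold change of 0.12 (SE 1.93) ran from −0.52 without siControl 1 to 6.00 without siControl 3. S100A9, a neutrophil and monocyte protein, had 17 counts in siControl 2, 4 in siDGUOK 1 and 0 elsewhere, and S100A7A, a keratinocyte protein, had 0 counts in every library. Neither was tested.

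**Figure D4:**
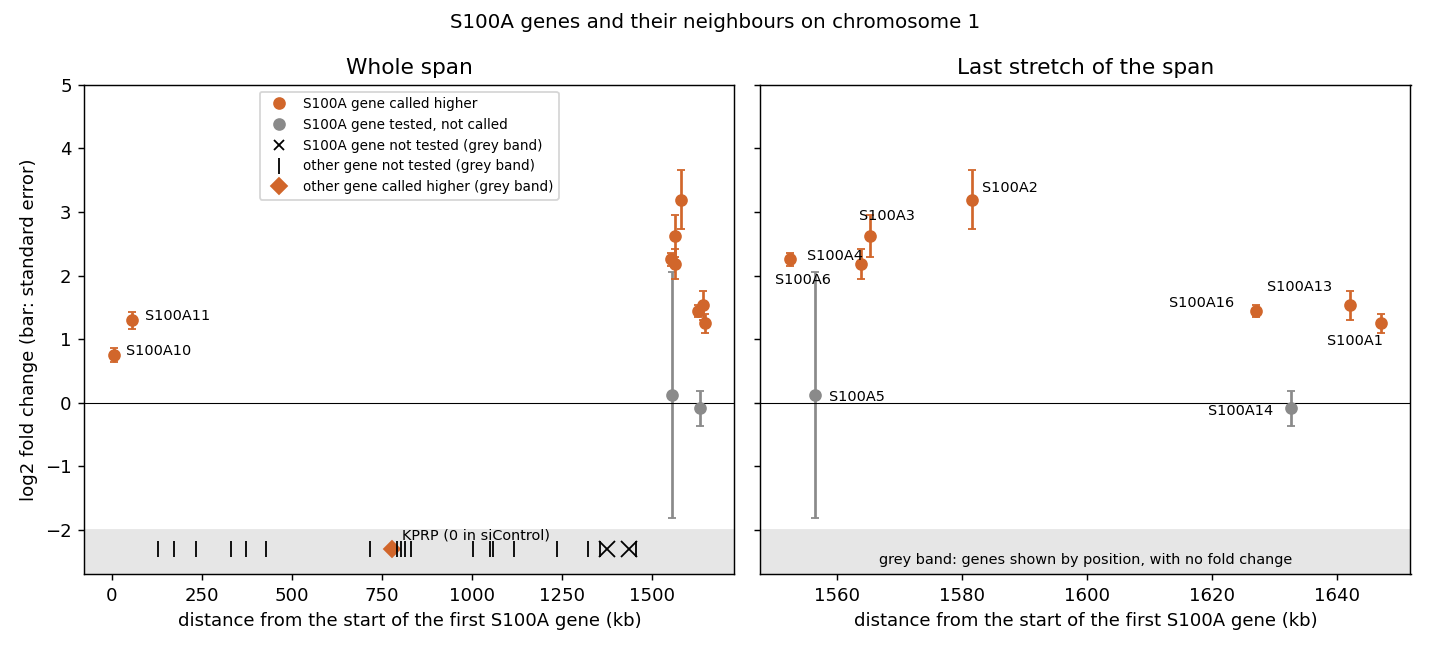
Log2 fold change (bars, standard error) of the tested S100A genes of chromosome 1 against distance in kb from the start of the first of them, over the whole span and over its last stretch. Of 11 tested S100A genes 9 were called higher (orange); the grey band holds untested genes and KPRP by position only.

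The plot along the cluster sets these genes by distance. The 13 S100A genes of the count table span 1649 kb (chr1:151982915-153632039, GRCh38), from S100A10 to S100A1. Of these 11 were tested, with 9 called higher, 0 lower and a median log2 fold change of 1.44. The count table holds 19 of 43 genes listed for the epidermal differentiation complex, so part of this stretch was not seen. The 20 other protein-coding genes of the table in the span, nearly all of them of cornified skin, gave 1 tested gene. This was KPRP, keratinocyte proline-rich protein, with 0 counts in each siControl library and 11, 38 and 50 counts in siDGUOK 1, 2 and 3. Its pooled level was at least 28.0-fold higher, taking 3 counts over the siControl group as the floor; such bounds cover counting error only. KPRP passed the count filter through the siDGUOK libraries alone, so its call is not counted as a result of the cluster. Within 1000 kb on either side of the span 48 protein-coding genes were tested, of which 3 were called higher and 2 lower, with a median of 0.10. On all of chromosome 1, 112 of 1266 tested protein-coding genes were called higher and 95 lower.

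S100A10, or p11, has lost calcium binding and forms a stable heterotetramer with annexin A2 that gathers plasminogen and its activators at the cell surface. S100A10 gave 76.1, 82.3 and 71.7 CPM in siControl 1, 2 and 3 and 116, 152 and 119 CPM in siDGUOK 1, 2 and 3. Every siDGUOK library was above every control, siDGUOK 2 most so, and the log2 fold change was 0.75 (SE 0.11). ANXA2, its partner, gave 219, 261 and 225 CPM in siControl and 346, 385 and 339 CPM in siDGUOK libraries. Again siDGUOK 2 was highest and the groups were separate, with a log2 fold change of 0.60 (SE 0.09). Per kilobase of transcript, the ratio of S100A10 to ANXA2 was 0.804, 0.729 and 0.737 in siControl and 0.773, 0.913 and 0.816 in siDGUOK libraries, ranges that overlapped. The level of this ratio depends on the length used: with the joint exon length of all transcripts S100A10 stood above ANXA2, at 75.8 and 20.3 CPM per kilobase in siControl cells. ANXA2 has several processed pseudogenes, and reads that also align to them were left out by the counting. S100A11, or calgizzarin, docks onto annexin A1 and annexin A2, and gave 27.7, 34.4 and 33.2 CPM in siControl and 82.9, 77.0 and 73.8 CPM in siDGUOK libraries. Its siDGUOK values were each more than any control by a wide margin, with a log2 fold change of 1.30 (SE 0.13). The adjusted p in edgeR's quasi-likelihood test with Benjamini-Hochberg adjustment was 0.000106 for S100A10, 5.40e-05 for ANXA2 and 9.44e-07 for S100A11.

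ANXA1, the glucocorticoid-induced annexin that binds formyl peptide receptors, was hardly present, with 32, 9 and 2 counts in siControl 1, 2 and 3 and 13, 61 and 0 counts in siDGUOK 1, 2 and 3. The highest value belonged to siDGUOK 2, the library that stood apart in endothelial markers, and the log2 fold change of 0.87 (SE 1.40) became −1.18 without it. ANXA2R had 0, 31 and 2 counts in siControl and 31, 44 and 7 counts in siDGUOK libraries. Its groups overlapped, with a log2 fold change of 1.31 (SE 1.38) that ran from 0.68 without siDGUOK 2 to 4.12 without siControl 2, and 5.15% of its exon length overlaps an antisense gene.

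S100P, on chromosome 4, was the most abundant member per length. S100P is a placental S100 protein that activates ezrin and is frequent in carcinomas of the biliary tract and pancreas. It gave 168, 229 and 220 CPM in siControl and 355, 364 and 369 CPM in siDGUOK libraries. The siDGUOK values lay close together above all controls, of which siControl 1 was the lowest, and the log2 fold change was 0.82 (SE 0.10, adjusted p = 7.46e-06 in edgeR's quasi-likelihood test with Benjamini-Hochberg adjustment). S100PBP, whose gene is on chromosome 1 far from the cluster, gave 14.1, 20.0 and 18.3 CPM in siControl and 13.9, 13.5 and 12.9 CPM in siDGUOK libraries. The siDGUOK values lay just below the lowest control, siControl 1, with a log2 fold change of −0.38 (SE 0.22, adjusted p = 0.273 in the same edgeR quasi-likelihood test with Benjamini-Hochberg adjustment). S100B, the astrocyte S100 protein, had 2 counts in siDGUOK 1 and 0 elsewhere, and S100Z had at most 25 counts in any library; neither was tested.

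Of the annexins that were called, ANXA5, ANXA3 and ANXA2 were higher and ANXA4 and ANXA13 lower. ANXA5, the phosphatidylserine binder used as a probe of dying cells, was the most abundant annexin per length and gave 322, 301 and 291 CPM in siControl and 497, 455 and 482 CPM in siDGUOK libraries. The groups were well apart, with a log2 fold change of 0.65 (SE 0.08). ANXA3, an annexin of neutrophil granules that is also made in hepatocytes grown in culture and in liver tumors, gave 45.0, 49.1 and 63.4 CPM in siControl and 92.3, 101 and 81.3 CPM in siDGUOK libraries. Its highest control, siControl 3, was below its lowest siDGUOK library, siDGUOK 3, and the log2 fold change was 0.81 (SE 0.14). ANXA4, an annexin of secretory and ductal epithelium, gave 202, 195 and 190 CPM in siControl and 123, 118 and 138 CPM in siDGUOK libraries. All 3 siDGUOK values were below all controls, at a log2 fold change of −0.63 (SE 0.09). ANXA13, the annexin of intestinal and kidney epithelium that is anchored by a myristoyl group, gave 15.2, 21.6 and 19.4 CPM in siControl and 4.11, 4.99 and 5.84 CPM in siDGUOK libraries. It fell by 1.91 on the log2 scale (SE 0.27), and its highest siDGUOK library, siDGUOK 3, was well below its lowest control, siControl 1. Adjusted p-values from edgeR's quasi-likelihood test with Benjamini-Hochberg adjustment were 4.78e-06 for ANXA5, 0.000264 for ANXA3, 3.95e-05 for ANXA4 and 4.10e-05 for ANXA13.

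Since ANXA5 was higher and ANXA4 lower, their ratio per kilobase of transcript moved in every library, from 2.58, 2.50 and 2.49 in siControl to 6.56, 6.25 and 5.67 in siDGUOK libraries. With the joint exon length of all transcripts the ratio is over 2 times as high in both groups, from ANXA5 at 104 and ANXA4 at 17.7 CPM per kilobase in siControl cells, while the change between groups does not depend on the length. ANXA6, a large annexin with a doubled core that works on endosomes and cholesterol transport, gave 126, 136 and 130 CPM in siControl and 88.6, 99.1 and 94.5 CPM in siDGUOK libraries. The groups did not overlap and the log2 fold change of −0.47 (SE 0.09, adjusted p = 0.00128 in edgeR's quasi-likelihood test with Benjamini-Hochberg adjustment) was just under the threshold in size. It passed the threshold without siDGUOK 2, at −0.51. ANXA9, a divergent annexin with changed calcium sites, gave 16.2, 25.5 and 16.2 CPM in siControl and 11.3, 13.97 and 15.5 CPM in siDGUOK libraries, and it was not called at a log2 fold change of −0.51 (SE 0.24), which was −0.25 without siControl 2. The siDGUOK values all lay below the controls, of which siControl 2 was far the highest, and the adjusted p was 0.157 in edgeR's quasi-likelihood test with Benjamini-Hochberg adjustment.

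ANXA11, which tethers RNA granules to lysosomes, gave 83.1, 87.2 and 90.6 CPM in siControl and 93.6, 83.3 and 88.1 CPM in siDGUOK libraries. ANXA7, or synexin, a membrane fusion protein, gave 76.5, 78.3 and 90.2 CPM in siControl and 82.1, 64.6 and 91.2 CPM in siDGUOK libraries. For both genes the groups overlapped, with log2 fold changes of 0.02 (SE 0.10) and −0.04 (SE 0.13), and either sign was seen when 1 library was left out. ANXA10, an annexin of the stomach, had 21 counts in siControl 2 and 0 elsewhere. ANXA8 and ANXA8L1, near-identical neighbours on chromosome 10, had 0 counts in every library, and since reads that fit both were left out by the counting these zeros are uncertain.

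The order of levels among members was read as CPM per kilobase of the Ensembl canonical transcript. In siControl cells S100P led at 436 ± 70.0, followed by ANXA5 at 186 ± 9.47, ANXA2 at 151 ± 14.7, S100A6 at 142 ± 15.8 and S100A1 at 131 ± 40.9 CPM per kilobase (SD, n = 3). The range of S100A1 overlapped those of ANXA5, ANXA2, S100A6 and S100A10, and those of ANXA2 and S100A6 overlapped as well, so the place of S100A1 and the order of ANXA2 and S100A6 in siControl cells are not resolved. In siDGUOK cells S100P stood at 770 ± 15.4 and S100A6 at 682 ± 61.1 CPM per kilobase (SD, n = 3), and their ranges did not overlap. S100A1 at 313 ± 27.8 and ANXA5 at 292 ± 13.03 CPM per kilobase (SD, n = 3) came next with overlapping ranges, then ANXA2 at 229 ± 15.96, which overlapped S100A10. With the joint exon length of all transcripts S100P and S100A6 kept ranks 1 and 2 in siDGUOK cells, while S100A1 came at rank 7 and ANXA2 at rank 8. In siControl cells that length put ANXA2 at 20.3 and S100A1 at 24.3, below S100A10 at 75.8, S100A6 at 63.7, S100A11 at 48.9 and S100A16 at 44.3 CPM per kilobase, so the places of ANXA2 and S100A1 depend on the length used.

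Genes that act with these proteins, or are related to them in kind or position, were taken from 5 lists. These lists share no gene with the members or with each other. Of 19 tested partners, 3 were called higher and 0 lower (15.8%, close to the 14.1% of all genes tested), with a median log2 fold change of 0.43 beside 0.02 for all genes tested. PLAU, the plasminogen activator urokinase, rose from 2.10 ± 2.01 to 19.9 ± 4.61 CPM (SD, n = 3), at a log2 fold change of 3.20 (SE 0.47). PLAUR, its receptor, rose from 3.26 ± 1.86 to 14.5 ± 4.76 CPM (SD, n = 3), at a log2 fold change of 2.17 (SE 0.42). CAPZA1, an actin capping subunit whose peptide S100B binds, had a log2 fold change of 0.56 (SE 0.09). The number of partners called was 6 without siControl 2, 5 without siDGUOK 2 and 7 without siDGUOK 3. Of 11 tested receptors 0 were called higher and 2 lower (18.2%, beside 14.1% of all genes tested), with a median of 0.26; these were CD36, the scavenger receptor, at −1.11 (SE 0.27) and ALCAM, an adhesion molecule, at −0.96 (SE 0.11).

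**Figure D5:**
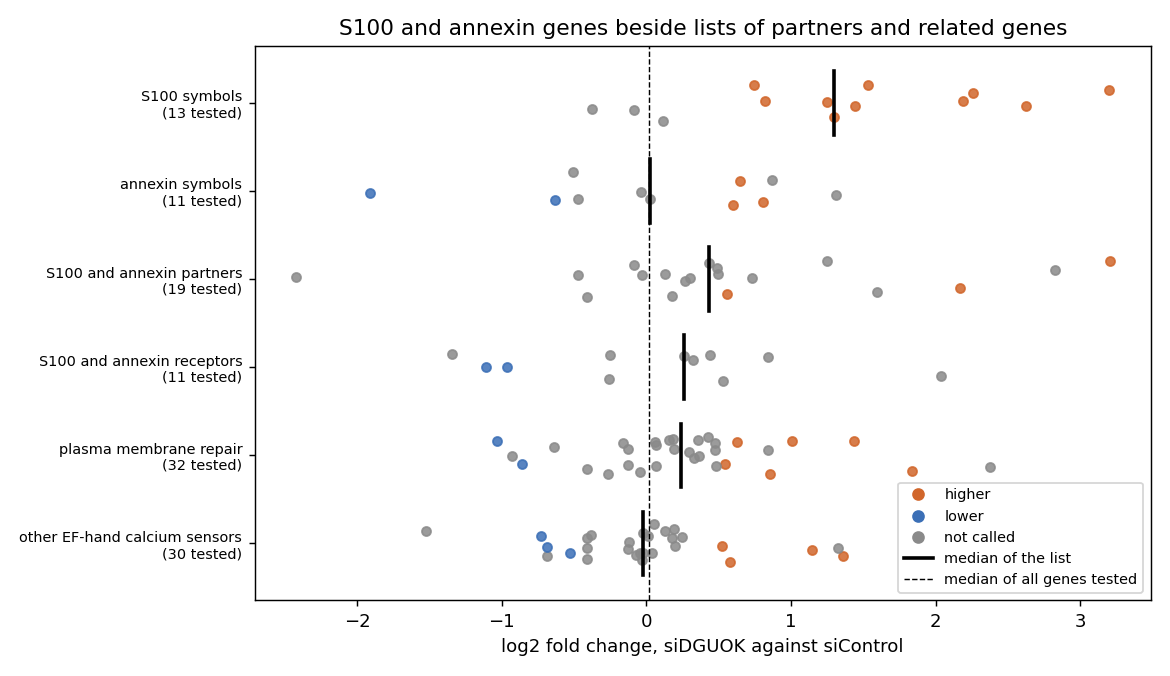
Log2 fold change of each tested S100 symbol, annexin symbol and gene of 4 related lists, orange for called higher, blue for called lower and grey for not called, with a bar at each list's median and a dashed line at the median of all genes tested. CALB2, with 0 counts in every siControl library, is not drawn; the S100 median of 1.30 lies to the right of every other.

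The plot of lists shows where genes of membrane repair and other calcium sensors fell beside the members. Of 32 tested genes of plasma membrane repair, 6 were called higher and 2 lower (25%, beside 14.1% of all genes tested), with a median of 0.24. MYOF, a ferlin of membrane fusion, had a log2 fold change of 1.84 (SE 0.33), and CAPN2, the large subunit of a calcium-activated protease, had 1.43 (SE 0.10). EHD2 and CAVIN1, which act at caveolae, had log2 fold changes of 1.01 and 0.85, and VPS4B and CHMP5 of the ESCRT machinery 0.63 and 0.54. SYT7, a calcium sensor of lysosome exocytosis, and SMPD1, acid sphingomyelinase, were lower, at −1.03 and −0.86. Other EF-hand calcium sensors gave 5 called higher and 3 lower among 30 tested (26.7% called, beside 14.1% of all genes tested), with a median of −0.02 that did not change with CALB2 at its bound. CALB2, calretinin, had 0 counts in each siControl library and 11, 45 and 44 counts in siDGUOK 1, 2 and 3, a pooled level at least 28.3-fold higher against the same floor of 3 counts over the group. It passed the count filter through the siDGUOK libraries alone and so had to differ, which leaves 4 other calls higher in this list. HPCAL1 at 1.36, TNNC1 at 1.15, CALM2 at 0.58 and CIB1 at 0.52 were the others called higher on the log2 scale, and CALU at −0.73, CETN2 at −0.69 and CALM3 at −0.52 were called lower. Without siDGUOK 2 there were 5 calls in this list. Of the epidermal differentiation complex list 19 genes were in the table and KPRP alone was tested.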

How the data were processed

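The authors deposited whole counts per gene, not normalized, made from paired-end reads aligned to GRCh38 with Gencode 27 by STAR 2.6.1 and counted with featureCounts 1.6.5 at default settings and a quality above 10; strand was therefore not used, and multi-mapped reads were not counted. Counts were filtered (filterByExpr, minimum count 10), scaled by TMM and tested for condition by quasi-likelihood (robust) in edgeR 4.0.16 (R 4.3.3), with Benjamini-Hochberg adjustment over 14476 genes. The standard error is the absolute log2 fold change over the square root of F. Positions and transcript lengths came from Gencode 44 on GRCh38, and promoter sequences from RefSeq (GRCh38.p14). Named genes were every member, DGUOK, up to 8 called genes of each list, the most abundant marker of each cell type list and called genes inside the chromosome 1 cluster. The members and lists were chosen with earlier results of these data known. The code was tested on simulated data. Replicates differed by more than counting error, by 10.7 to 25.7 in chi-square over its degrees of freedom. Alternatives were DESeq2 1.42.0 with and without shrinkage, RLE and upper-quartile scaling, mitochondrial genes left out, no count filter, a mean CPM above 10, replicate number as a block, other fold thresholds, and each library left out.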

Additional observations from a re-analysis of the deposited data

How the results depend on the processing

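No member changed its call under RLE or upper-quartile scaling, without mitochondrial genes, without a count filter or in DESeq2 with or without shrinkage. The replicate numbers gave no pairing (correlations of same-numbered libraries across genes 0.0297, 0.0268 and −0.000726); with the replicate block 13 members were called higher and 2 lower, 2077 genes were called over the table, and ANXA1, not called in either fit, went to −0.34. Of the members called, S100A2 and S100A3 could not be tested at a mean CPM above 10, since they were under that level, and the epidermal list then gave 0 calls. A log2 threshold of 1 left 8 members higher and 1 lower, 819 genes over the table, and 1, 4 and 3 calls among receptors, repair genes and EF-hand sensors; with no fold threshold partners, receptors and repair genes gave 8, 4 and 13. Partners gave 6 calls without a count filter. With all genes that have a count fitted, the median of all genes moved to 0.14 without the filter and to 0.13 in DESeq2. Leaving out 1 library at a time gave 3 to 7 calls among partners and 5 to 8 among EF-hand sensors, and lost no member's call. Fold changes that reversed were of genes not called. With 1 library left out, ANXA1 ran from −1.18 to 2.09, ANXA2R from 0.68 to 4.12, ANXA9 from −0.62 to −0.25, S100A5 from −0.52 to 6.00, ANXA11 from −0.0373 to 0.0659, ANXA7 from −0.159 to 0.0899 and S100A14 from −0.206 to 0.0365. The causes of these shifts were not tested.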

Other observations

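The rule left out pseudogenes, and ANXA2P2, a processed pseudogene of ANXA2, had 30, 51 and 35 counts in siControl 1, 2 and 3 and 72, 61 and 47 counts in siDGUOK 1, 2 and 3. Its groups overlapped, and the log2 fold change was 0.36 (SE 0.59). ANXA2P1 had 7 counts in siDGUOK 2 and 0 elsewhere, and ANXA2P3 had 0 counts in every library. Counts of these copies are uncertain, since they share sequence with ANXA2.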
